A study of Rattus norvegicus with 13 samples.

Results

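The 10 genes described here make or shape the podocyte, the epithelial cell that covers the outside of the glomerular capillaries: Nphs1, Podxl, Ptpro, Synpo, Actn4, Myo1e, Inf2, Rhpn1, Wt1 and Cdkn1c. They were chosen by name, and every probe set whose only gene symbol on the platform is a member was kept, which gave 15 of the 15923 probe sets on the array. A probe set is the group of short oligonucleotides that together report a transcript. Nphs1, Synpo and Wt1 have 2 probe sets each and Podxl has 3, and each is reported by itself. All 15 passed the filter on dim probe sets.

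RNA from glomeruli of Lewis-Hsd rats aged 18 weeks, fed a regular diet and untreated, was measured on 13 one-colour Affymetrix arrays. In the LCM20 (n = 4) and LCM800 (n = 5) groups, glomeruli came from frozen 10 µm kidney sections, cut out with a laser (laser capture microdissection, LCM), and the RNA was amplified in 2 rounds. In the sieved group (n = 4, titled iron), the kidney was perfused with iron oxide, glomeruli were collected by sieve and magnet, and labelling started from 6 µg of unamplified RNA, with a purity by microscopy above 99%. The question was how microdissected glomeruli compare with conventionally isolated ones. Capture, amplification and the perfused kidney all differ between the microdissected and sieved groups, so their contributions cannot be told apart. The titles alone separate LCM20 from LCM800, since the protocols name about 800 cross-sections for both and do not say what the 20 counts. The labels list all samples as untreated, yet the extraction protocol names anti-Thy1.1 rats, and the description speaks of embryos, which no other field does. The replicates are titled biological but no animal is named for any array, so the p-values measure the spread between these arrays, which may be partly technical.

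Podocytes extend interlocking foot processes around the capillary, and the slits between them are bridged by the slit diaphragm, an adhesion complex built around nephrin. The complex is tied to an actin skeleton inside the foot process, and the outer surface carries a negatively charged coat. Loss or mutation of several of these genes causes protein to leak into the urine.

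Signals are the deposited array intensities, and changes are differences of mean log2(signal + 65.3), microdissected minus sieved unless stated, ± SE of the fit. Adding 65.3 makes changes of dim probe sets smaller than the ratio of their signals. Adjusted p-values are two-sided, come from limma and were corrected over 11106 probe sets. A difference in signal can come from fewer cells of a type or from less RNA per cell, and these cannot be told apart in bulk RNA. Median signal per array lay between 236 and 321, and the number of arrays limits precision.

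The promoters of Nphs1, Synpo and Podxl are shown as a gene each of the slit diaphragm, the actin skeleton and the surface coat, and they are also the genes whose likeness to other genes is described. RefSeq promoter windows on GRCr8, 250 bases before to 50 after the start, matched 7 of the 10 genes (all but Rhpn1, Actn4 and Cdkn1c). Capitals mark the GC box letters GGGCGG on either strand, which may overlap each other.
Nphs1 (chr1:94848011-94848310, + strand): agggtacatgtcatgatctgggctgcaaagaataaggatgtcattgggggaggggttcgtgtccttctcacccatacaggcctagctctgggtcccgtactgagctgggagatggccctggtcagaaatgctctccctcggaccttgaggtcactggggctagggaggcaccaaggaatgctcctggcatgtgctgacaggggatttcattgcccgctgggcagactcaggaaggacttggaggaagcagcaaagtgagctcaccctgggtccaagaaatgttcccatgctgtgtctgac
Synpo (chr18:56347310-56347609, - strand): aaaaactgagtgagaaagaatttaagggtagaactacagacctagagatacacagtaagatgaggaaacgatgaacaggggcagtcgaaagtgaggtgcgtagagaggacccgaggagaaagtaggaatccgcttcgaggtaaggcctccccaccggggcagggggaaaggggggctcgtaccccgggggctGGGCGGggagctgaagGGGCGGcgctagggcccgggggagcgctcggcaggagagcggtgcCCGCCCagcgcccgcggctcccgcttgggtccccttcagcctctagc
Podxl (chr4:61149082-61149381, - strand): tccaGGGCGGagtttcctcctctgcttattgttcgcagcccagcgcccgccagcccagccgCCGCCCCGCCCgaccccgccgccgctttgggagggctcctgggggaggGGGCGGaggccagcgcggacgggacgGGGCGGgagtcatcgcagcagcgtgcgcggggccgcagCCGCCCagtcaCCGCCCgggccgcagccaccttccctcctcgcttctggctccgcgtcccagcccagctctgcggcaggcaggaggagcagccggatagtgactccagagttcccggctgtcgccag
The GC box occurred 3 times in the Synpo window and 7 times in the Podxl window, and was not found in the Nphs1 window. The letters of a WT1 motif, GNGTGGGNG, searched on both strands, were in none of the 7 windows. Among all 33469 windows of the same length, 33.1% held the GC box and 12.9% the WT1 letters. These matches are a description of letters in a window, and a missing match says only that the letters are not there. GC content was 56.3% for Nphs1, 63% for Synpo and 74.7% for Podxl, against a median of 51.7% over all windows.

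**Figure D1:**
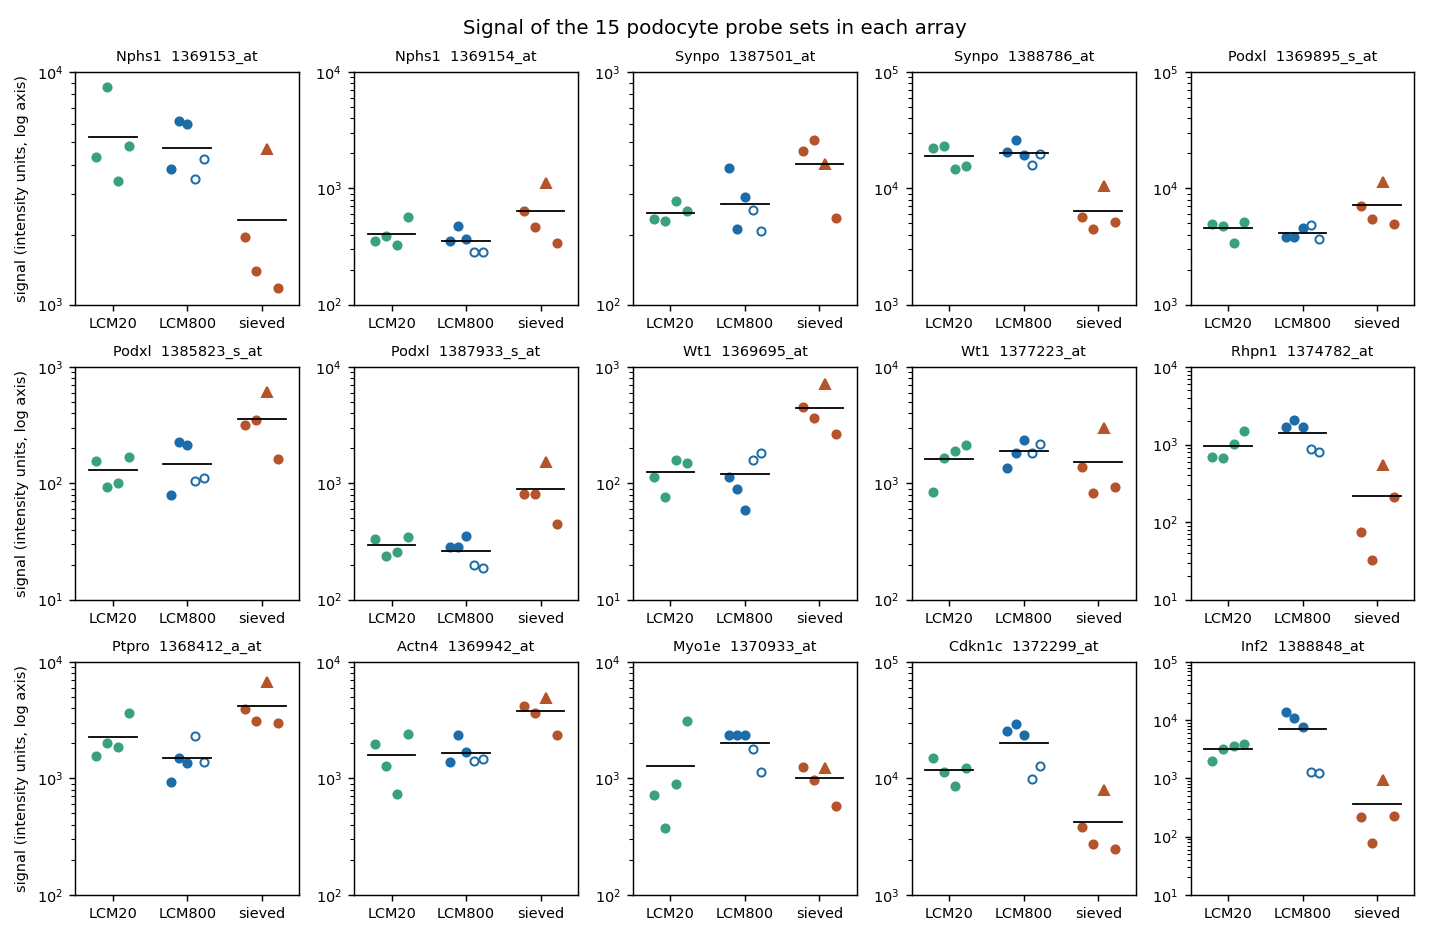
Signal of each of the 15 podocyte probe sets on a log axis in intensity units, with a point for every array and a bar at the group mean of the signals. Triangles mark sieved replicate 3 and open circles mark LCM800 replicates 4 and 5. Synpo 1388786_at, Rhpn1, Cdkn1c and Inf2 sat above the sieved arrays in every microdissected array, and Podxl 1387933_s_at and Wt1 1369695_at sat below them.

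Over both comparisons with sieved glomeruli the members split in both directions. In LCM20 glomeruli 5 probe sets rose and 5 fell, against 26.2% of all tested probe sets called higher and 19.2% called lower. In LCM800 glomeruli 5 rose and 6 fell, against 31.8% called higher and 20.1% called lower. The ranges of the arrays were apart for 6 members in LCM20 against sieved and for 9 in LCM800 against sieved, where 43.8% and 42.8% of all tested probe sets had such ranges. The median change of the 15 members was -0.48 for LCM20, beside 0.17 over all tested, and -0.46 for LCM800, beside 0.22. Both comparisons use the same 4 sieved arrays.

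**Figure D2:**
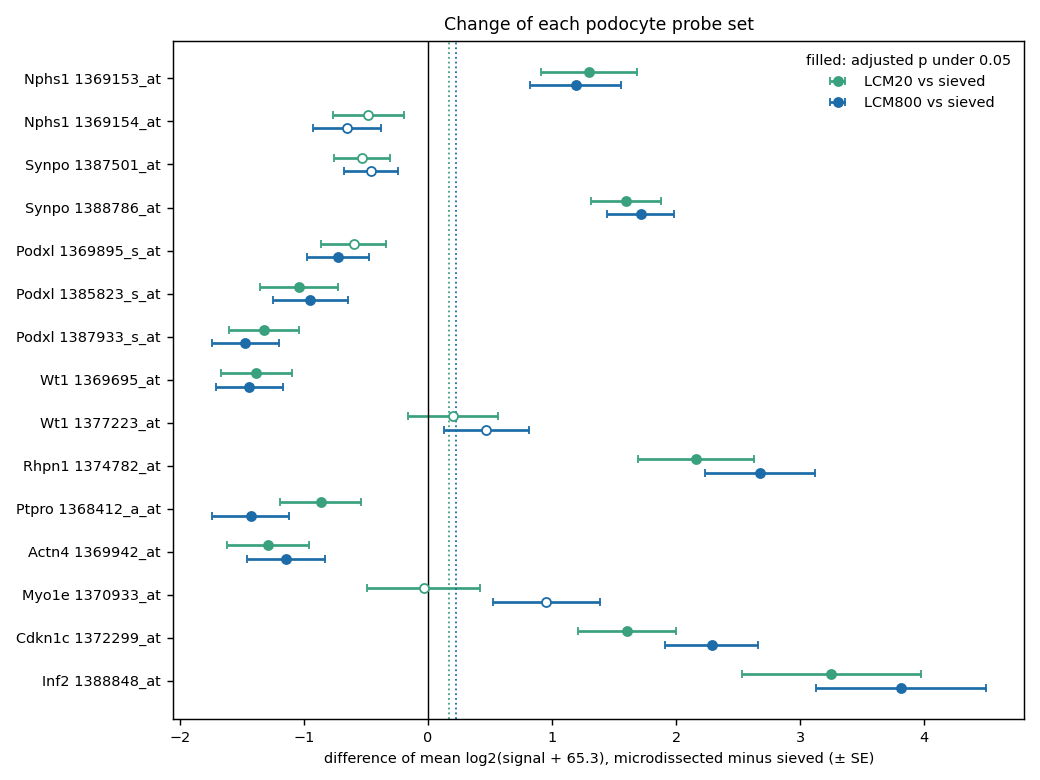
Difference of mean log2(signal + 65.3), microdissected minus sieved, for the 15 podocyte probe sets with its SE (bars), for LCM20 and LCM800. Filled points passed an adjusted p of 0.05, and dotted lines are the median of all tested probe sets. Rhpn1, Cdkn1c and Inf2 lie furthest to the right, and the probe sets of Nphs1, Synpo and Wt1 lie far apart from each other.

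Individual arrays were high or low for many members at once. Sieved replicate 3 was the highest sieved array in 13 of 15 members, all but Synpo 1387501_at and Myo1e, where it was highest in 36.3% of all tested probe sets. Its median deviation from the sieved mean was 0.78 over the members, against -0.02 over all tested. It was above the mean in 15 of 15, against 47.7% of all tested. Sieved replicate 4 was above the mean in 1 of 15, against 51.9% of all tested. Its median was -0.59 over the members, against 0.009 over all tested. LCM800 replicates 1 to 3 did not overlap replicates 4 and 5 in 7 of 15 members, where this held for 52.7% of all tested probe sets. The 3′ minus 5′ log2 signal of a control compares the ends of its transcript. For β-actin it read 2.80, 3.54 and 4.01 in LCM800 replicates 1 to 3 and 1.78 and 1.71 in replicates 4 and 5. It parted along the same line, but the other controls did not. GAPDH read 1.24, 1.11 and 1.08 against 2.02 and 0.68, and hexokinase 0.28, -0.23 and 0.45 against 0.60 and 0.06. The part of these controls in the members' values was not tested. The labels give no reason for the patterns of sieved replicate 3 or of the LCM800 replicates. Without sieved replicate 3 the number of members called was 8 in LCM20 (5 higher, 3 lower) and 10 in LCM800 (6 higher, 4 lower). In that fit 43.7% of all tested probe sets were called in LCM20 and 49.3% in LCM800. With LCM800 replicates 4 and 5 alone 9 members were called in LCM800 (4 higher, 5 lower), beside 46.9% of all tested.

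**Figure D3:**
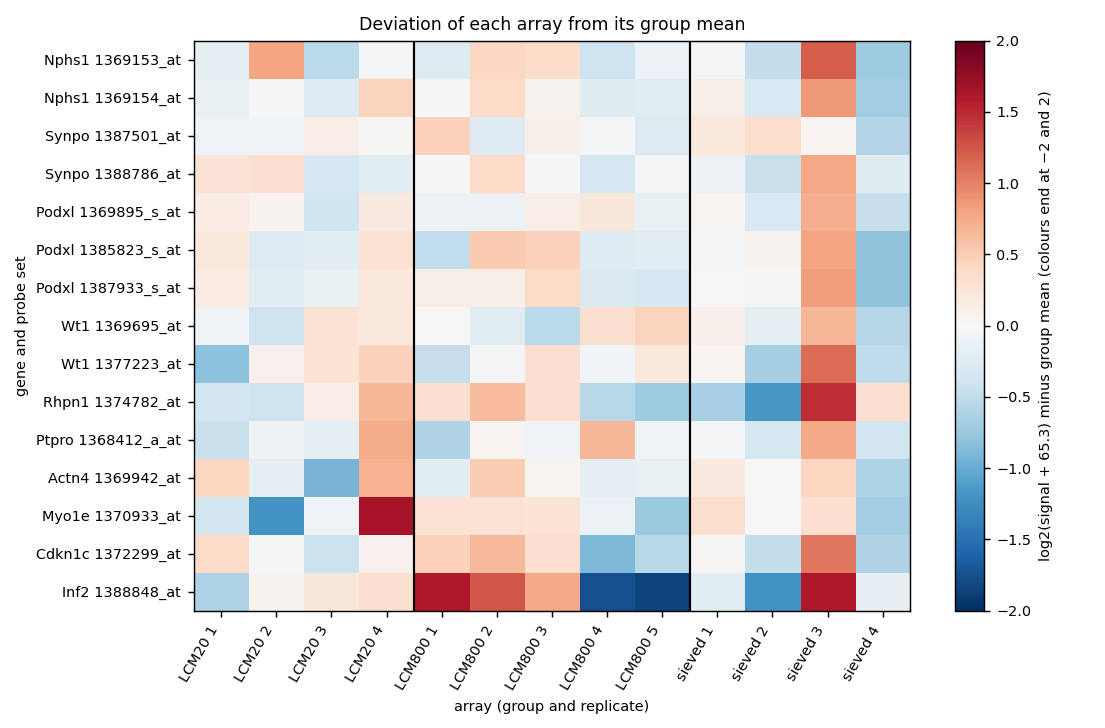
Deviation of each array from its own group mean, on the log2(signal + 65.3) scale, for every podocyte probe set (rows) and array (columns, grouped as LCM20, LCM800 and sieved). Colours end at -2 and 2. Sieved replicate 3 is above its group mean in all 15 rows, and LCM800 replicates 1 to 3 part from replicates 4 and 5 most strongly for Inf2.

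Nephrin, encoded by Nphs1, is the immunoglobulin-family protein whose molecules meet across the slit. Its probe set 1369153_at read 4309, 8593, 3386 and 4807 in LCM20 arrays, 3810.2, 6168, 5963, 3449 and 4235 in LCM800 arrays, and 1955, 1399, 4669.7 and 1179.9 in sieved arrays. Sieved replicate 3 was within the range of both microdissected groups, and the other 3 sieved arrays were below them. The probe set rose by 1.30 ± 0.38 in LCM20 (adjusted p = 0.0123) and by 1.19 ± 0.37 in LCM800 (adjusted p = 0.0126), and the LCM800 call was lost without sieved replicate 4, at 0.95 (adjusted p = 0.0558). With LCM800 replicates 4 and 5 alone the adjusted p was 0.119, the highest of its alternatives. The other Nphs1 probe set, 1369154_at, is built from the same sequence record. It read 352, 389, 324 and 565 in LCM20 arrays, 353, 470.1, 369, 283 and 285 in LCM800 arrays, and 642, 462, 1117 and 337 in sieved arrays. The groups overlapped, and its change was -0.48 ± 0.29 in LCM20 (adjusted p = 0.178) and -0.65 ± 0.27 in LCM800 (adjusted p = 0.0538), neither past the threshold. The LCM800 change passed without sieved replicate 4, at -0.88 (adjusted p = 0.0155), and without LCM800 replicate 2, at -0.75 (adjusted p = 0.0407). It also passed with quantile normalization, at -0.73 (adjusted p = 0.0344), and with equal array medians, at -0.76 (adjusted p = 0.0366).

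Podocalyxin, encoded by Podxl, is the sialomucin that gives the foot process surface its negative charge. Probe set 1369895_s_at read 4962, 4703, 3372 and 5076 in LCM20 arrays, 3814, 3778, 4521, 4822 and 3695 in LCM800 arrays, and 7011, 5494, 11334 and 4940.3 in sieved arrays. Every LCM800 array was below every sieved array, while the highest LCM20 arrays were above the lowest sieved one. The change was -0.60 ± 0.26 in LCM20, which missed the threshold (adjusted p = 0.0728), and this probe set fell by 0.72 ± 0.25 in LCM800 (adjusted p = 0.0234). That LCM800 call was lost without sieved replicate 3, at -0.48 (adjusted p = 0.0849), and without sieved replicate 1, at -0.71 (adjusted p = 0.0553). It was also lost with quantile normalization, at -0.58 (adjusted p = 0.105), and with LCM800 replicates 4 and 5 alone, at -0.68 (adjusted p = 0.0996). The LCM20 change passed without sieved replicate 4, at -0.75 (adjusted p = 0.0457). The Podxl probe set 1387933_s_at read 329.8, 239, 257 and 346 in LCM20 arrays, 283, 282, 354, 199 and 189 in LCM800 arrays, and 817, 814, 1518 and 447 in sieved arrays. All microdissected arrays were below all sieved arrays, and it fell by 1.33 ± 0.28 in LCM20 (adjusted p = 0.00146) and fell by 1.47 ± 0.27 in LCM800 (adjusted p = 0.000352). Both calls held in all 25 alternatives run. Probe set 1385823_s_at was the dimmest of the 3, with 157, 93.6, 99.8 and 168 in LCM20 arrays, 79.9, 227, 215, 106 and 111 in LCM800 arrays, and 318, 348, 615 and 161 in sieved arrays. Sieved replicate 4 lay within the microdissected values. It fell by 1.04 ± 0.32 in LCM20 (adjusted p = 0.0141) and fell by 0.95 ± 0.30 in LCM800 (adjusted p = 0.0149), and both calls were lost without sieved replicate 3, at -0.78 (adjusted p = 0.0526) and -0.69 (adjusted p = 0.0653).

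Ptpro, a receptor-type tyrosine phosphatase of the apical foot process membrane, read 1556, 2002, 1879 and 3636 in LCM20 arrays, 927, 1494, 1361, 2301 and 1385 in LCM800 arrays, and 3915, 3094, 6795 and 3023 in sieved arrays. Every LCM800 array was below every sieved array, and LCM20 replicate 4 was above the lowest sieved arrays. The gene fell by 0.87 ± 0.33 in LCM20 (adjusted p = 0.0406) and fell by 1.43 ± 0.31 in LCM800 (adjusted p = 0.00135). The LCM20 call did not hold in 8 of 25 alternative settings. It was lost without sieved replicate 3, at -0.61 (adjusted p = 0.128), and without sieved replicate 1, LCM800 replicate 3 or any of LCM20 replicates 1 to 3, at -0.87 to -0.72 (adjusted p between 0.0501 and 0.115).

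Synaptopodin, encoded by Synpo, is an actin-associated protein of the foot process. Its probe set 1388786_at was among the brightest members, with 22094, 22944, 14498 and 15656 in LCM20 arrays, 20428, 26117, 19437, 15826 and 19617 in LCM800 arrays, and 5653, 4437, 10445 and 5132 in sieved arrays. Every microdissected array was above every sieved array. It rose by 1.59 ± 0.28 in LCM20 (adjusted p = 0.00035) and by 1.71 ± 0.27 in LCM800 (adjusted p = 9.37e-05), with mean signals 2.93 and 3.16 times the sieved mean. Probe set 1387501_at went the other way in value without passing: 234, 229, 278 and 252 in LCM20 arrays, 386, 211, 289, 256 and 207 in LCM800 arrays, and 456, 509, 400.4 and 236 in sieved arrays. The lowest sieved array lay inside the microdissected ranges. Its change was -0.53 ± 0.23 in LCM20 (adjusted p = 0.0665) and -0.46 ± 0.22 in LCM800 (adjusted p = 0.084). Both passed without sieved replicate 4, at -0.73 in LCM20 (adjusted p = 0.0178) and -0.66 in LCM800 (adjusted p = 0.0199), and the LCM800 change also passed without LCM800 replicate 1, at -0.57 (adjusted p = 0.036). With array weights both passed, at -0.67 in LCM20 (adjusted p = 0.0215) and -0.58 in LCM800 (adjusted p = 0.0188). The LCM800 change also passed with quantile normalization, at -0.56 (adjusted p = 0.0345), and with equal array medians, at -0.57 (adjusted p = 0.0308).

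Actn4 encodes the α-actinin that crosslinks actin filaments in the foot process. It read 1983, 1275, 734 and 2407 in LCM20 arrays, 1385, 2340.3, 1693, 1402 and 1455 in LCM800 arrays, and 4189, 3667, 4956 and 2366 in sieved arrays. The LCM800 and sieved arrays did not overlap, and LCM20 replicate 4 was above the lowest sieved array. The gene fell by 1.29 ± 0.33 in LCM20 (adjusted p = 0.00525) and fell by 1.14 ± 0.31 in LCM800 (adjusted p = 0.0066).

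Myo1e, a membrane-binding class I myosin, was the member in which the microdissected groups differed most from each other in value. LCM20 arrays read 723, 376, 889 and 3105, LCM800 arrays read 2381, 2376, 2374, 1792 and 1140.0, and sieved arrays read 1254, 979, 1238 and 581. LCM20 replicate 4 was above every other array, and the other 3 LCM20 arrays were below every LCM800 array. The change against sieved was -0.03 ± 0.46 in LCM20 (adjusted p = 0.957) and 0.95 ± 0.43 in LCM800 (adjusted p = 0.0757), and the LCM800 change passed in 6 of 25 alternatives. Among these were the fits without LCM800 replicate 5, at 1.14 (adjusted p = 0.0408), and without LCM20 replicate 2 or 4 (adjusted p = 0.0464 and 0.0167).

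Inf2, a formin that assembles and severs actin filaments, had the largest change among the members in the main fit. LCM20 arrays read 2001, 3232, 3621 and 3869, LCM800 arrays read 14000.5, 10952, 7770.3, 1314 and 1226, and sieved arrays read 219, 78.2, 937 and 229. Every microdissected array was above every sieved array, and LCM800 replicates 1 to 3 were far above replicates 4 and 5. The gene rose by 3.25 ± 0.72 in LCM20 (adjusted p = 0.00194) and by 3.81 ± 0.69 in LCM800 (adjusted p = 0.000308). Leaving out single arrays kept the change between 2.85 and 3.78 in LCM20 and between 3.41 and 4.34 in LCM800. The LCM800 change depended more on the split of its replicates. It was 2.01 with LCM800 replicates 4 and 5 alone and 5.01 with replicates 1 to 3 alone. The LCM800 call held in all 25 alternatives, but its size was not stable.

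Rhpn1, which encodes rhophilin 1, read 683, 668, 1008 and 1483 in LCM20 arrays, 1676, 2075, 1698, 887 and 791 in LCM800 arrays, and 74.2, 32.3, 544 and 212 in sieved arrays. No microdissected array was as low as the highest sieved array, and sieved replicate 3 was that array. The gene rose by 2.16 ± 0.47 in LCM20 (adjusted p = 0.00164) and by 2.68 ± 0.44 in LCM800 (adjusted p = 0.000156).

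The nuclear members also split. Wt1, a zinc finger transcription factor of podocytes, read on probe set 1369695_at 113, 75.7, 160.0 and 151 in LCM20 arrays, 113, 89.7, 58.6, 159 and 181 in LCM800 arrays, and 456, 362, 709 and 264 in sieved arrays. Every microdissected array was below every sieved array. It fell by 1.38 ± 0.28 in LCM20 (adjusted p = 0.00109) and fell by 1.44 ± 0.27 in LCM800 (adjusted p = 0.000439). Its probe set 1377223_at read 849, 1646, 1883 and 2153 in LCM20 arrays, 1347, 1822, 2372, 1812 and 2187 in LCM800 arrays, and 1378, 822, 2987 and 922 in sieved arrays. All 3 groups overlapped, and its change was 0.20 ± 0.36 in LCM20 (adjusted p = 0.672) and 0.47 ± 0.34 in LCM800 (adjusted p = 0.263). Without sieved replicate 3 the LCM800 value was 0.84 and passed (adjusted p = 0.028).

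Cdkn1c encodes p57, an inhibitor of cyclin-dependent kinases that is high in mature podocytes. It read 15084, 11369, 8631 and 12283 in LCM20 arrays, 25806, 29438, 23737, 9947 and 12722 in LCM800 arrays, and 3829, 2709, 7953 and 2468 in sieved arrays. The microdissected arrays were all above the sieved arrays, by a narrow margin at LCM20 replicate 3 and sieved replicate 3. The gene rose by 1.60 ± 0.40 in LCM20 (adjusted p = 0.00406) and by 2.29 ± 0.37 in LCM800 (adjusted p = 0.000139).

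Probe sets of the same gene were then set against each other within each array, as the gap between the brighter and the dimmer one. A gap holds no ratio of transcripts, because probe sets differ in brightness, but a gap that differs between groups shows that 2 probe sets of the gene changed unequally. In LCM20 against sieved 4 of 6 member pairs changed, where 47.6% of the 1234 pairs of 974 genes did. In LCM800 against sieved 4 of 6 changed, where 49.7% of all pairs did, so both counts stand beside a background of about the same order and nothing particular to the members is read from them.

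For Nphs1 the mean log2 gap was 3.44 in LCM20, 3.50 in LCM800 and 1.66 in sieved arrays, a change of 1.78 (adjusted p = 0.000249) for LCM20 and 1.84 (adjusted p = 9.14e-05) for LCM800. For Synpo it was 5.88 in LCM20, 5.93 in LCM800 and 3.76 in sieved arrays, a change of 2.13 (adjusted p = 0.00013) for LCM20 and 2.17 (adjusted p = 4.91e-05) for LCM800. For Wt1 it was 3.11 in LCM20, 3.43 in LCM800 and 1.52 in sieved arrays, a change of 1.59 (adjusted p = 0.00176) for LCM20 and 1.91 (adjusted p = 0.000231) for LCM800. These 3 genes passed in all 17 alternatives run, in both comparisons. For Podxl, 1369895_s_at minus 1387933_s_at changed by 0.72 (adjusted p = 0.0462) in LCM20 and by 0.75 (adjusted p = 0.0297) in LCM800, and it passed in 8 and 11 of 17 alternatives. The LCM20 call was lost without any of sieved replicates 1 to 3, LCM800 replicates 2 or 3, or LCM20 replicates 1, 2 or 4, and the LCM800 call without any of sieved replicates 1 to 3 or LCM800 replicates 4 or 5. The other Podxl pairs did not pass: 1369895_s_at minus 1385823_s_at had a change of 0.44 (adjusted p = 0.243) in LCM20 and 0.23 (adjusted p = 0.541) in LCM800, and 1387933_s_at minus 1385823_s_at of -0.28 (adjusted p = 0.365) and -0.52 (adjusted p = 0.0797).

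**Figure D4:**
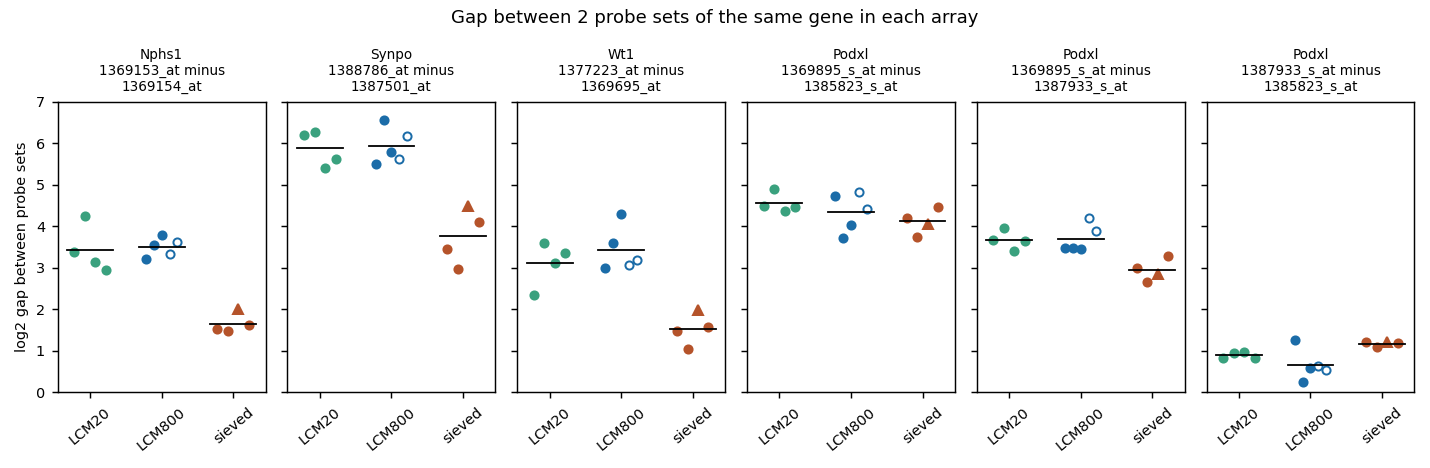
Log2 gap between 2 probe sets of the same gene in every array (points), with the group mean (bar), for the 6 pairs of Nphs1, Synpo, Wt1 and Podxl. Triangles mark sieved replicate 3 and open circles LCM800 replicates 4 and 5. For Nphs1, Synpo and Wt1 all sieved arrays lie below all microdissected arrays.

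After the values had been seen, the member probe sets were also sorted by the type of sequence record behind them. Of the 7 from expressed sequence tags, 4 rose and 1 fell in both LCM20 and LCM800, with median changes of 1.59 and 1.71. Over all 6614 tested probe sets from expressed sequence tags, 26.5% were called higher and 18.2% lower in LCM20, and 30.9% higher and 19.7% lower in LCM800. Of the 8 from mRNA or other records, 1 rose and 4 fell in LCM20, with a median of -0.73, and 1 rose and 5 fell in LCM800, with a median of -0.93. Over all 2576 tested from mRNA or other records, 21.9% were called higher and 25.7% lower in LCM20, and 29.0% higher and 26.3% lower in LCM800. Over all tested probe sets from expressed sequence tags the medians were 0.16 for LCM20 and 0.20 for LCM800, and over those from mRNA or other records 0.06 and 0.12. The grouping was made with the values known, so it is a description without a test.

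The 3′ minus 5′ signals of the control probe sets, which compare the ends of a control transcript, were set beside these values. On the log2(signal + 65.3) scale the β-actin difference was 1.80 ± 0.45 in LCM20 (SD, n = 4), 2.77 ± 1.03 in LCM800 (SD, n = 5) and 0.55 ± 0.02 in sieved arrays (SD, n = 4). An exact two-sided permutation test gave 0.0286 for LCM20 against sieved (0.0643 adjusted over 9 tests) and 0.0159 for LCM800 (0.0476 adjusted). These are the smallest p-values this test can give for 4 against 4 and for 5 against 4 arrays. The LCM20 values, 1.33 to 2.29, all lay above the sieved values, 0.53 to 0.57. For GAPDH the difference was 1.14 ± 1.38 in LCM20, 1.22 ± 0.49 in LCM800 and 0.52 ± 0.15 in sieved arrays, and only LCM800 against sieved passed (exact p = 0.0159, 0.0476 adjusted). For hexokinase the direction was opposite, with 0.44 ± 0.31 in LCM20, 0.23 ± 0.33 in LCM800 and 0.73 ± 0.14 in sieved arrays, and again only LCM800 against sieved passed (exact p = 0.0159, 0.0476 adjusted). Whether this takes part in the gaps between probe sets was not tested.

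LCM20 was then set against LCM800, the comparison between the microdissected groups. No member passed limma's test in either direction, where 0.072% of all tested probe sets were called higher and 0.081% lower, 17 in all. At an unadjusted p of 0.05 only Myo1e passed among the 15, as did 1952 of the 11106 tested, and no member had ranges apart, against 3.84% of all. With LCM800 replicates 1 to 3 alone 2 members passed, Cdkn1c at -1.17 (adjusted p = 0.0233) and Inf2 at -1.76 (adjusted p = 0.0158), but in that fit 2594 of all tested probe sets were called (23.4%). With LCM800 replicates 4 and 5 alone no member passed, 23 of all tested probe sets were called, and the values turned to 0.0456 for Cdkn1c and 1.24 for Inf2. The median change of the 15 was -0.09, beside -0.06 over all tested. Myo1e had a change of -0.99 ± 0.43 (adjusted p = 0.256). For Synpo 1388786_at the change was -0.12, with a 95% interval from -0.69 to 0.45, and for Nphs1 1369153_at it was 0.11, from -0.67 to 0.88, so differences within these bounds were not resolved. For Inf2 the interval ran from -2.01 to 0.89. None of the 6 gaps changed, where 0% of all pairs did, and 253 pairs but no member pair passed an unadjusted p of 0.05.

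Summed signals of marker lists for the cells a glomerular sample could hold were set beside the members. Each marker entered by its probe set with the highest mean log2 over all arrays. The 6 of 11 podocyte markers measured here, of which 5 are members, summed to 25379 to 40256 in LCM20, 28506 to 39658 in LCM800 and 15511 to 37045 in sieved arrays, with sieved replicate 3 the highest sieved array. In this sum Synpo 1388786_at alone read 14498 to 22944 in LCM20, 15826 to 26117 in LCM800 and 4437 to 10445 in sieved arrays. The brightest probe sets of Podxl, Ptpro and Tcf21, which is no member, had lower means in both microdissected groups than in sieved arrays. For Tcf21 the means were 379 in LCM20, 318 in LCM800 and 537 in sieved arrays. Those of Nphs1 and Wt1 had higher means. The Wt1 change did not pass in either comparison, nor did those of Podxl and Tcf21 in LCM20. The dimmer Wt1 probe set fell in both. In microdissected arrays Synpo 1388786_at was the brightest of the 6. In sieved arrays Podxl 1369895_s_at, at 4940.3 to 11334, was about as bright as Synpo. The sum therefore does not follow the Synpo probe set alone, and podocyte content was not tested. The 12 proximal tubule markers summed to 21945 to 49532 in LCM20, 25722 to 50948 in LCM800 and 69074 to 125849 in sieved arrays, and sieved replicate 3 was the lowest sieved array. The 5 of 6 parietal epithelial markers measured, which mark the capsule of the glomerulus, summed to 1124 to 1942 in LCM20, 1164 to 1760.2 in LCM800 and 4731 to 7555 in sieved arrays. The 6 of 8 endothelial markers measured summed to 18843 to 25476 in LCM20, 12677 to 16079 in LCM800 and 4668 to 14606 in sieved arrays. The 7 mesangial markers summed to 1468 to 2468 in LCM20, 1969 to 3608 in LCM800 and 1016 to 3076 in sieved arrays. The 9 markers of the loop, distal tubule and collecting duct summed to 4479 to 11536 in LCM20, 12996 to 20182 in LCM800 and 17773 to 38505 in sieved arrays, and the 5 leukocyte markers to 1666 to 4824 in LCM20, 2427 to 5080 in LCM800 and 5208 to 9416 in sieved arrays. Sieved replicate 3 was also the highest sieved array for the endothelial and mesangial sums. Without it the sieved sums ran from 4668 to 6138 and from 1016 to 1493. For the parietal, the loop, distal tubule and collecting duct, and the leukocyte sums it was the lowest sieved array. No marker was at 0 in any list. Whether tubule or capsule RNA takes part in the members' changes was not tested.

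Other genes linked to podocytes were described from 3 lists that hold no member. Each gene stands here by its tested probe set with the highest mean log2 over all arrays. Other probe sets of the same gene may have changed otherwise and are not given. The lists were chosen with earlier results of these data known, so their counts are a description and not a test. Their counts stand beside 26.2% of all tested probe sets called higher and 19.2% lower in LCM20, and 31.8% higher and 20.1% lower in LCM800. In the slit diaphragm and junction list, 16 of 26 genes were tested, and 9 rose and 0 fell in LCM20 (median 1.03), while 8 rose and 0 fell in LCM800 (median 0.55). Ctnna1, which links junctions to actin, rose by 2.52 in LCM20 (adjusted p = 3.79e-05) and by 1.99 in LCM800 (adjusted p = 0.000133). Tjp1, a scaffold of cell junctions, rose by 1.35 in LCM20 (adjusted p = 0.0086) and by 0.94 in LCM800 (adjusted p = 0.0376). Cd2ap and Kirrel1 were not analysed here.

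The actin, adhesion and apical list had 27 of 34 genes tested, of which 7 rose and 6 fell in LCM20 (median -0.27), and 4 rose and 8 fell in LCM800 (median 0.06). The LCM20 shares lie near the 26.2% higher and 19.2% lower of all tested probe sets, and in LCM800 the background was 31.8% and 20.1%. Lims1, an adhesion adaptor, rose by 1.45 in LCM20 (adjusted p = 0.0392), and Myh9, a non-muscle myosin heavy chain, fell by 2.42 (adjusted p = 0.000111). Actn1, the α-actinin related to Actn4, rose by 1.70 in LCM800 (adjusted p = 2.92e-05), and Actg1, a cytoplasmic actin, fell by 2.43 (adjusted p = 1.58e-06). Ezr, which ties podocalyxin to actin, had a change of -0.75 in LCM20 (adjusted p = 0.106) and fell by 2.02 in LCM800 (adjusted p = 0.000207). Itga3, the integrin subunit that binds laminin, rose by 0.76 in LCM20 (adjusted p = 0.0411) and by 1.23 in LCM800 (adjusted p = 0.00159).

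In the list of transcription factors, secreted factors and basement membrane genes 17 of 27 were tested, with 4 up and 4 down in LCM20 (median 0.08) and 3 up and 5 down in LCM800 (median -0.03), beside the same background of 26.2% and 19.2% in LCM20 and 31.8% and 20.1% in LCM800. Lamb2, a laminin chain of the filtration barrier, rose by 2.17 in LCM20 (adjusted p = 6.62e-05) and by 2.38 in LCM800 (adjusted p = 1.36e-05). Pax8, a transcription factor of kidney epithelium, fell by 1.67 in LCM20 (adjusted p = 0.00315) and fell by 1.64 in LCM800 (adjusted p = 0.002). Pax8 is also among the parietal epithelial markers summed above, so its fall is not read as one of podocytes. Vegfa, the growth factor podocytes send to the endothelium, fell by 1.60 in LCM20 (adjusted p = 1.87e-05) and fell by 1.03 in LCM800 (adjusted p = 0.000413). In LCM20 against LCM800 none of the 16, 27 or 17 genes passed limma's test.

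Likeness between genes was taken as Pearson's r over 13 arrays after each group's mean was removed, as a description. Nphs1 1369153_at was most like Myom2 (0.943), Mmp9 (0.908), Capn2 (0.905), Serinc3 (0.899) and Col4a1 (0.897). Synpo 1388786_at was most like Zbtb4 (0.936), Capn2 (0.936), Tmod3 (0.934), Itga8 (0.920) and Ywhaq (0.920). Podxl 1369895_s_at was most like Bmpr2 (0.919), Arhgef17 (0.918), Zc3h7b (0.906), Akap12 (0.903) and Ets2 (0.902). Among the members, Nphs1 1369153_at and Synpo 1388786_at had r = 0.853, which was 0.682 over the 12 arrays without sieved replicate 3. For Nphs1 1369153_at and Podxl 1369895_s_at the r of 0.739 was 0.407 without that array, and the 2 Synpo probe sets had r = -0.14. All arrays of a group share its isolation method, and genes were picked for the highest r.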

How the data were processed

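The deposited values are linear array intensities that the authors computed with the MAS5 program, per the submitters' processing notes, for 13 arrays. Each array's mean, with 2% left out at both ends, was near the same value, so arrays were not normalized again. The tests used log2(signal + 65.29), and 65.29 is the 20th percentile of all signals. The 57 control probe sets and the dimmest 30% by mean log2 were left out, which left 11106 tested. Groups came from the titles, and limma 3.58.1 (R 4.3.3) with lmFit and then eBayes, using its intensity trend, fitted the 3 groups together without covariates, with Benjamini-Hochberg adjustment at 0.05. Gaps between probe sets of a gene were fitted likewise over 1234 pairs. Control signals at both transcript ends were compared with exact permutation tests in scipy 1.17.1. Scripts were tested on simulated data. The members and lists were chosen with earlier results of these data known. Named beside the members are the largest rise and fall past the test in each list, further fixed genes, and the 5 genes most like each of 3 members. Alternatives were quantile normalization, equal medians, other pseudocounts and filters, no trend, array weights, a replicate block, only the 2 groups compared, and leaving out arrays.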

Additional observations from a re-analysis of the deposited data

How the results depend on the processing

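The number of members called stayed within 1.5 times its main value in all alternatives against sieved, and leaving out single arrays gave 8 to 12 for LCM20 and 10 to 12 for LCM800. The share of all tested probe sets called in those single-array runs lay between 37.1% and 46.7% for LCM20 and between 44.4% and 52.6% for LCM800. The gap counts were 3 to 4 for LCM20 and 3 to 5 for LCM800 in the same runs. For gaps the share of all pairs was taken in the main fit alone, at 47.6% for LCM20 and 49.7% for LCM800. With a replicate block the counts were 10 and 10 for members and 3 and 3 for gaps, and 0 in both for LCM20 against LCM800. With that block 43.9% of all tested probe sets were called in LCM20 and 49.1% in LCM800, and 0 in LCM20 against LCM800. Podxl 1369895_s_at in LCM800 against sieved was then -0.69 (adjusted p = 0.0675). Same-numbered arrays had deviations correlated between -0.24 and 0.23. The labels name no animal, so whether same-numbered arrays share one is not known, and the main fit did not pair them. Equal medians moved the median of all probe sets for LCM800 against sieved to 0.12, against 0.22 as scaled. For LCM20 against LCM800 the count was 2, Cdkn1c at -1.17 and Inf2 at -1.76, with LCM800 replicates 1 to 3 alone, where 2594 of all probe sets were called against 17 with all 5 replicates, and the cause was not tested.

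Some values that did not pass in the main fit changed sign. Against sieved, Myo1e in LCM20 was 0.00872 with 4 times the pseudocount and ran from -0.58 to 0.36 without single arrays, and Wt1 1377223_at ran from -0.0181 to 0.576. For LCM20 against LCM800, leaving out single arrays gave -0.38 to 0.17 for Actn4, -0.15 to 0.29 for Nphs1 1369153_at, -0.215 to 0.0375 for Podxl 1385823_s_at, -0.14 to 0.0419 for Synpo 1387501_at, -0.0786 to 0.192 for Wt1 1369695_at and -0.42 to 0.00618 for Wt1 1377223_at. Quantile normalization gave 0.0228 for Synpo 1387501_at, 0.0410 for Synpo 1388786_at and 0.0152 for Podxl 1385823_s_at. Equal medians gave 0.0269 for Synpo 1387501_at and 0.00748 for Podxl 1385823_s_at, and array weights gave -0.0665 for Nphs1 1369153_at. LCM800 replicates 1 to 3 alone gave -0.0667 for Nphs1 1369153_at and -0.0588 for Podxl 1387933_s_at. LCM800 replicates 4 and 5 alone gave 0.0815 for Synpo 1387501_at, 0.0637 for Synpo 1388786_at, 0.146 for Podxl 1385823_s_at, -0.328 for Wt1 1369695_at, 0.114 for Rhpn1, 0.0310 for Actn4, 0.0456 for Cdkn1c and 1.24 for Inf2.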
